A study of Homo sapiens with 16 samples.

Results

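The elastic fibre and microfibril genes described here are 10 genes of the protein scaffold that lets tissue stretch and recoil: ELN, FBN1, FBN2, MFAP2, MFAP4, MFAP5, FBLN1, FBLN2, FBLN5 and LOX. They were taken by symbol from a table of 40663 gene symbols, after earlier results of these data were known. All 10 were present and were tested in every comparison. RNA was sequenced from 16 cultures of Ccd18-Co, an established fibroblast line from human colon, to ask what repeated cytokine exposure left behind and whether inhibitors of chromatin enzymes altered it. By the labels there were 4 groups of 4 libraries, and all 16 were used. The study's legends give 3 replicates per group for such RNA-seq. Cells called vehicle had received 3 pulses of a mix of TNF, OSM and IL-17A (10 ng/ml for each) with IL-1B (0.1 ng/ml), in which 72 h in serum-free medium alternated with 96 h of recovery, and after 1 week of rest they were kept in DMSO for 5 days. Cells called belinostat or GSK-J4 had the same pulses, and in those 5 days received 250 nM belinostat, which inhibits histone deacetylases, or 10 µM GSK-J4, which inhibits demethylases of lysine 27 of histone H3. These doses are those of the labels, and parts of the study's text give other doses of belinostat, GSK-J4 and IL-1B. Cells called unstimulated had no cytokines and, by their titles, DMSO, while the columns of the count table name no treatment for them. By the labels, the groups shared the line and an interval of 2 weeks between the 5 days of compound or DMSO and the RNA. All libraries came from a single line, and since the labels do not say that the libraries of a group were grown as independent experiments, the p-values measure the spread between these libraries.

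Elastic fibres consist of a core of crosslinked elastin laid down on a sheath of microfibrils, which are threads of fibrillin decorated with smaller glycoproteins. Fibulins bridge elastin, fibrillin and the cell surface, and lysyl oxidase joins elastin molecules to each other. Fibroblasts and smooth muscle cells make most of these proteins in the bowel wall, and microfibrils also hold growth factors of the TGF-beta family in the matrix.

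The libraries held 14.4 to 19.5 M estimated counts, of which the 10 genes took 0.383% to 0.466%. All 9 fibroblast markers checked (COL1A1, COL1A2, COL3A1, PDGFRA, PDGFRB, VIM, DCN, LUM and THY1) averaged at least 10 normalized counts, as did 4 of 5 smooth muscle markers, 1 of 3 endothelial, 1 of 4 immune, 0 of 4 epithelial and 0 of 3 glial markers. DES reached at most 3.24 normalized counts, CDH5, VIL1, CD3E and the glial markers averaged under 1, and KRT20 was at 0. The summed smooth muscle markers moved with the compounds, from 22016 to 25720 normalized counts in vehicle, 13834 to 17444 under belinostat, 33862 to 35635 under GSK-J4 and 19772 to 33207 in unstimulated cells. The summed fibroblast markers were also highest under GSK-J4 (538880 to 574821, against 431600 to 515323 under belinostat, 501974 to 536279 in vehicle and 489101 to 515624 in unstimulated cells). CD14, the immune marker above 10, averaged 71.8 ± 33.4 normalized counts (SD, n = 4) in unstimulated cells, 141 ± 42.9 in vehicle, 196 ± 72.2 under belinostat and 106 ± 34.6 under GSK-J4. The part of these markers in the results below was not tested. One belinostat library, number 17, stood apart from the others of its group. The mean squared deviation between replicates, in which 1 is sampling noise, was 26.5 to 31.6 in pairs that held it and 3.69 to 4.70 in the other belinostat pairs. It was the lowest belinostat library for 7 of the 10 genes and the highest for MFAP4 and LOX. The belinostat calls of the 10 genes, and their other belinostat values that it moved, are therefore given with and without it. Unstimulated libraries also spread widely, with a mean squared deviation of 6.59 to 31.3 between pairs, the highest being that of libraries 1 and 3. Unstimulated 1 was the lowest of its group for 6 of the 10 genes, and unstimulated 3 the highest for 6. In bulk RNA, fewer cells that express a gene and less RNA per cell cannot be told apart.

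The promoters of FBLN1 and FBLN2 are shown because these fibulins moved in opposite directions under belinostat. The sequences are those of RefSeq on GRCh38.p14, 5′ to 3′, taken from a table used here that lists 7 of the 10 genes, and GC boxes (GGGCGG, or CCGCCC on the other strand) are in capitals. The stretch of FBLN1 ends 51 bases short of its listed start, where an exon of another transcript begins, and lies within the annotated span of the gene.
FBLN1, chr22:45502633-45502831, plus strand: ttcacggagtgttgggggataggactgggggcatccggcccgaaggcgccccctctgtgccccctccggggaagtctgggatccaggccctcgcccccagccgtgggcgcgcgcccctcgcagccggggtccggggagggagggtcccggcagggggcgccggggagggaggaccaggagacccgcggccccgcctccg
FBLN2, chr3:13548875-13549124, plus strand: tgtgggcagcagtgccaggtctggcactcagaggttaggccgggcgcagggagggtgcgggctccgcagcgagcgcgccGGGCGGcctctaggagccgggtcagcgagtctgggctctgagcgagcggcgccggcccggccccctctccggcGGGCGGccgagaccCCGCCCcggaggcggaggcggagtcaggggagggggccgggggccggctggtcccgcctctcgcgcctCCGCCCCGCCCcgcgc
The FBLN2 window of 250 bases held 5 GC boxes, counting overlapping matches. The FBLN1 window of the same length held 1, in the 51 bases not printed. A second listed start of FBLN2, with a window at chr3:13568490-13568739, had 0. The 7 genes had 12 listed starts, and a GC box lay in 7 of these 12 windows (58.3%), against 42.6% of 35116 RefSeq start windows. The GC content of the 12 windows ran from 46.8% (a start of MFAP2) to 80.4% (the first listed start of FBLN2), with FBLN1 at 77.6%. The median of all windows was 58%, and the shares were not matched for GC content. TGANTCA, the AP-1 motif, was found in 1 of the 12 windows (MFAP2) against 6.57% of all windows, and TATAAA in 1 of the 12 (FBLN5) against 10.7%, with both strands searched. Windows of neighbouring starts of a gene can overlap. These are matches of letters and were not tested as binding sites.

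Per kilobase of canonical transcript, the 10 genes spanned from 19.8 to 8242 normalized counts averaged over the 16 libraries. FBLN1, a fibulin of microfibrils and basement membranes, was first at 8242 (4773 to 10840 over libraries). FBLN5, a fibulin needed for assembly of elastin, and MFAP4, a microfibril glycoprotein, followed at 3321 (2310 to 4095) and 3091 (2540 to 3902), and these neighbours overlapped. The fibrillins FBN1 and FBN2 stood at 1626 (1162 to 2007) and 1546 (1056 to 1798) and also overlapped. MFAP2 (373, from 305 to 442) and LOX (312, from 251 to 534) overlapped as well. FBLN2 reached 143 (102 to 210.2). ELN (31.8, from 15.1 to 71.2) and MFAP5 (19.8, from 5.35 to 38.4) were lowest and overlapped. ELN transcripts were thus far scarcer per kilobase than those of FBLN1, FBLN5, MFAP4 and the fibrillins.

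**Figure D1:**
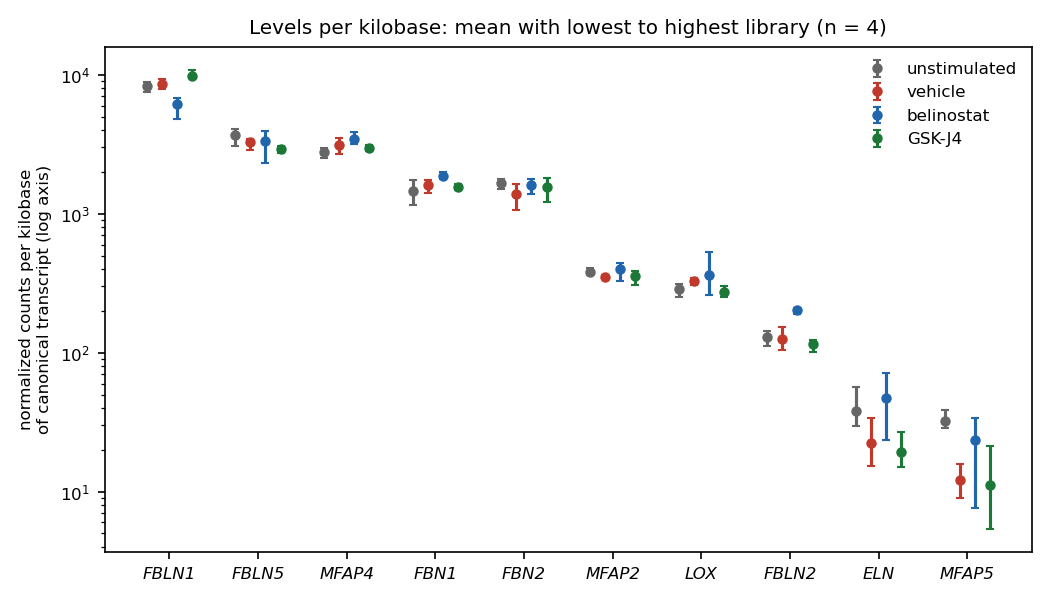
Normalized counts per kilobase of canonical transcript (log axis) for each gene and group; points are means of 4 libraries and bars run from the lowest to the highest library. FBLN1 is highest and ELN and MFAP5 lowest in every group; the belinostat points stand below the other groups for FBLN1 and above them for FBLN2.

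Against vehicle, belinostat changed 3 of the 10 genes: ELN and FBLN2 rose and FBLN1 fell (DESeq2, adjusted p under 0.05). Of 14209 genes tested, 6.26% were called in that comparison, 3.12% higher and 3.13% lower. The median log2 fold change of the 10 genes was 0.20 (0.26 without library 17), and that of all genes tested was 0.00. GSK-J4 against vehicle called 0 of the 10 genes with DESeq2, where 1.92% of 13197 genes were called, 1.10% higher and 0.818% lower. At an unadjusted p under 0.05, DESeq2 counted 1 of them (FBLN1) and edgeR 0, and edgeR also called 0 after adjustment. The median was -0.10, against -0.00 over all genes.

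Cytokine pulses followed by vehicle, against unstimulated cells, left 1 of the 10 genes called, MFAP5, which was lower. Over 16240 genes tested, 1.74% were called, 1.10% higher and 0.634% lower. The median of the 10 was -0.08 and that of all genes -0.00. Belinostat against GSK-J4 called 4 of the 10 (ELN, MFAP4 and FBLN2 higher, FBLN1 lower), among 12.2% of 14717 genes, 6.18% higher and 6.01% lower. Belinostat against unstimulated cells called 4 (FBN1, MFAP4 and FBLN2 higher, FBLN1 lower), among 10.3% of genes, 5.51% higher and 4.77% lower. GSK-J4 against unstimulated cells called 1 (MFAP5, lower), among 5.55% of 16747 genes, 3.18% higher and 2.37% lower. The medians of the 10 genes in these 3 comparisons were 0.25, 0.18 and -0.10, and those of all genes 0.00, -0.00 and -0.01. Without library 17 the first and second became 0.29 and 0.11. Comparisons with vehicle share the vehicle libraries, and those with unstimulated cells share the unstimulated ones. Likewise, all comparisons of belinostat share its 4 libraries, number 17 included, and those of GSK-J4 share the GSK-J4 libraries. These counts are therefore not independent of each other.

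**Figure D2:**
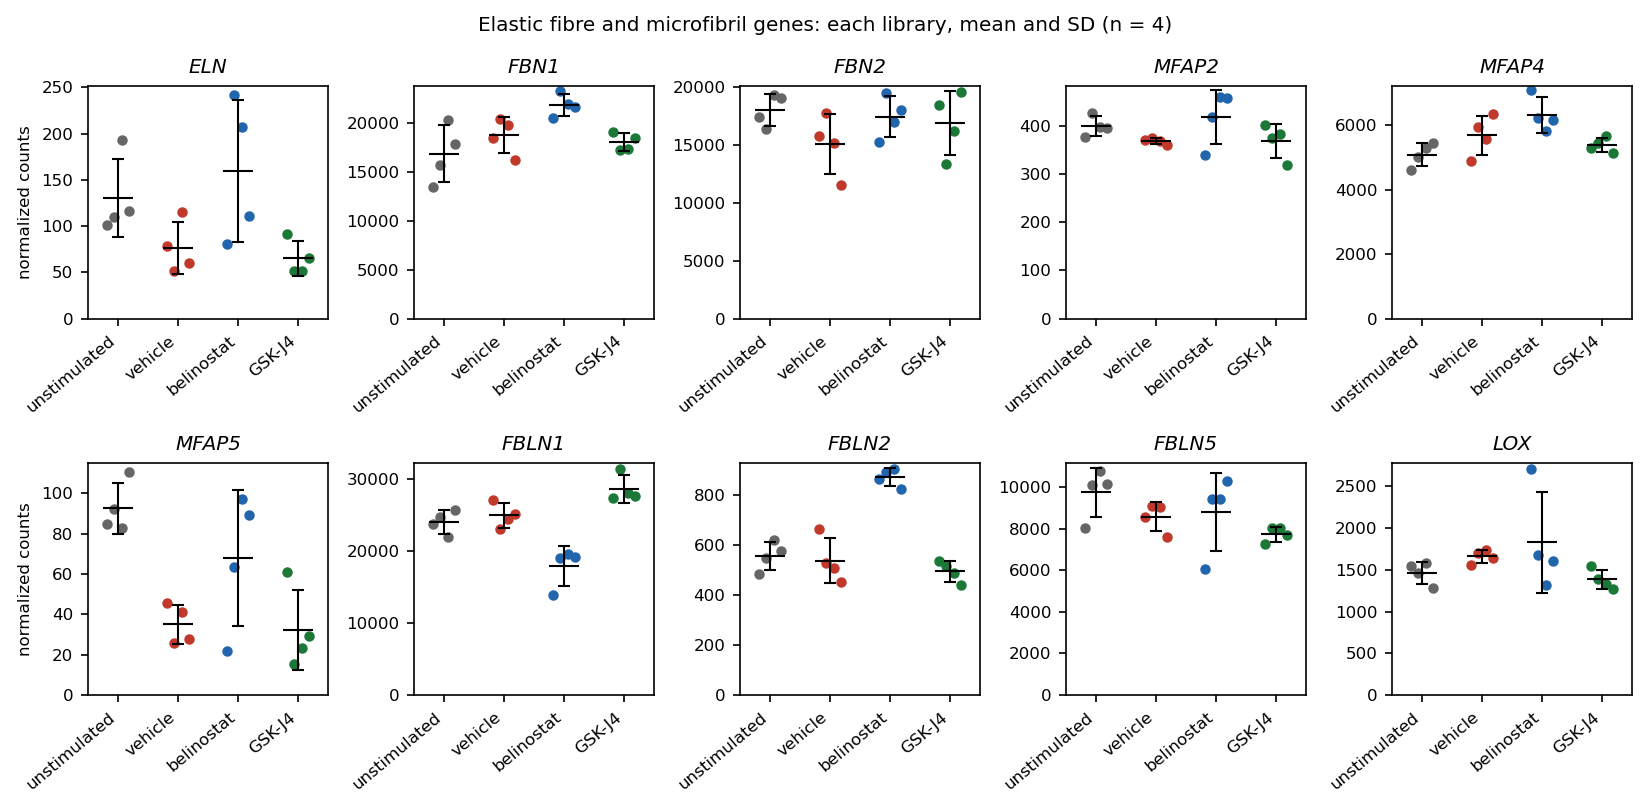
Normalized counts (counts divided by the size factor of the library) of each of the 10 genes; points are the 4 libraries of a group, with mean and SD, and every axis starts at 0. The groups separate without overlap for FBLN1 and FBLN2 under belinostat and for MFAP5 between unstimulated and vehicle cells, while ELN under belinostat spreads from 80.2 to 242. Other groups separate too, some without a call, such as FBN1 under belinostat against vehicle. The share of all genes whose groups separate was not counted.

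ELN (ENSG00000049540.19, chr7:74027789-74069907 on GRCh38, plus strand) encodes tropoelastin, the soluble unit of the elastin core. Its normalized counts were 101, 110.1, 194 and 116 in unstimulated cells and 78.0, 51.7, 116 and 59.9 in vehicle. Under belinostat they were 80.2, 242, 207 and 111, and under GSK-J4 91.5, 51.2, 51.8 and 66.0. Belinostat cells thus held the highest values but also the widest spread, and libraries 17 and 20 lay within the vehicle range. ELN rose 2.09-fold under belinostat against vehicle (log2 1.07 ± 0.33 SE, n = 4 and 4, DESeq2 adjusted p = 0.0257). Without library 17 the log2 value was 1.29 with adjusted p = 0.00105. The call was lost with edgeR (adjusted p = 0.0833) and when vehicle 13, 14 or 16 or belinostat 18 or 19 was left out (DESeq2 adjusted p = 0.0698 to 0.206). Against GSK-J4, belinostat cells had 2.45-fold more ELN (log2 1.29 ± 0.33, adjusted p = 0.00194), a call that held in all 13 alternatives (log2 1.52 without library 17), though the groups overlapped.

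In the remaining comparisons ELN did not pass the test. Vehicle against unstimulated gave a log2 fold change of -0.77 ± 0.33 (DESeq2 adjusted p = 0.365), with overlapping groups. GSK-J4 against unstimulated gave -1.001 ± 0.34 (adjusted p = 0.0504), and there every GSK-J4 library lay below every unstimulated one. The adjusted p of this last value moved to 0.0402 without unstimulated 1 and to 0.0220 without GSK-J4 21, and ranged from 0.00273 to 0.245 over all alternatives. Belinostat against unstimulated gave 0.29 ± 0.33 (adjusted p = 0.688), with a 95% interval from -0.35 to 0.94, and 0.52 (adjusted p = 0.343) without belinostat 17. ELN was measured from only 50.4 to 218 estimated counts per library, which limits its precision.

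FBN1 (ENSG00000166147.15, chr15:48408313-48645721, minus strand) encodes fibrillin-1, the main microfibril protein of adult tissue, in which mutations cause Marfan syndrome. Its normalized counts were 13492, 15732, 20327 and 17836 in unstimulated cells and 18469.8, 20459, 19770.5 and 16252 in vehicle. Belinostat libraries held 20515, 23298, 21946 and 21619, and GSK-J4 libraries 19130.3, 17241, 17366 and 18502. Every belinostat library stood above every library of the other groups. FBN1 rose 1.30-fold under belinostat against unstimulated cells (log2 0.37 ± 0.10, DESeq2 adjusted p = 0.00370, 0.40 without library 17), and this call held in all 13 alternatives. Against vehicle the log2 fold change was 0.22 ± 0.10 (adjusted p = 0.223), with a 95% interval from 0.02 to 0.42, and 0.25 without library 17. Against GSK-J4 it was 0.27 ± 0.10 (adjusted p = 0.0506), and 0.30 (adjusted p = 0.0303) without library 17. Whether the differences from these control groups themselves differed was not tested.

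FBN2 (ENSG00000138829.14, chr5:128257909-128659185, minus strand) encodes fibrillin-2, which is best known from developing tissue. It ranged from 16411 to 19329.6 normalized counts in unstimulated cells, 11539 to 17753 in vehicle, 15272 to 19562 under belinostat and 13342 to 19652 under GSK-J4. No comparison of FBN2 passed the test, the largest being vehicle against unstimulated at log2 -0.26 ± 0.13 (DESeq2 adjusted p = 0.495). Its belinostat values were 0.21 against vehicle, 0.05 against GSK-J4 and -0.05 against unstimulated cells, and 0.27, 0.11 and 0.01 without library 17. Its exons overlap those of SLC27A6 on the opposite strand, which had 3539 to 5836 estimated counts, and the library kit is not stated to keep strand, so reads of the shared bases cannot be told apart. The ratio of FBN1 to FBN2 counts averaged 0.929 ± 0.115 (SD, n = 4) in unstimulated cells, 1.26 ± 0.121 in vehicle, 1.26 ± 0.0730 under belinostat and 1.08 ± 0.149 under GSK-J4. The unstimulated ratios, 0.775 to 1.05, lay below the vehicle ratios, 1.15 to 1.41.

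MFAP5 (ENSG00000197614.11, chr12:8637346-8662888, minus strand), also called MAGP2, encodes a glycoprotein that binds fibrillin. Unstimulated libraries held 84.9, 92.1, 82.6 and 110.3 normalized counts and vehicle libraries 45.7, 25.9, 41.0 and 27.7. Belinostat libraries held 21.96, 63.5, 97.1 and 89.3, and GSK-J4 libraries 61.0, 15.4, 23.4 and 29.3. All vehicle and all GSK-J4 libraries lay below all unstimulated ones, while belinostat libraries reached from below the vehicle range into the unstimulated range. MFAP5 was 2.64-fold lower in vehicle than in unstimulated cells (log2 -1.40 ± 0.39, DESeq2 adjusted p = 0.0281). The adjusted p rose to between 0.0526 and 0.148 when unstimulated 1, 2 or 4 or vehicle 14, 15 or 16 was left out, and edgeR gave 0.101. Under GSK-J4 it was 2.86-fold lower than in unstimulated cells (log2 -1.52 ± 0.40, adjusted p = 0.00490), a call that held in all 13 alternatives (adjusted p from 3.11e-05 to 0.0367).

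Belinostat did not give a call for MFAP5 with all libraries. Its log2 fold change against vehicle was 0.95 ± 0.40 (DESeq2 adjusted p = 0.164), and without library 17 it was 1.25 with adjusted p = 0.00357. Against GSK-J4 the value was 1.07 ± 0.40 (adjusted p = 0.0586), which became 1.37 (adjusted p = 0.000677) without belinostat 17 and 1.58 (adjusted p = 0.00152) without GSK-J4 21. Against unstimulated cells it was -0.45 ± 0.39 (adjusted p = 0.569), and -0.15 without library 17. MFAP5 rested on 15.2 to 113 estimated counts per library, so a single library can set these values.

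MFAP4 (ENSG00000166482.12, chr17:19383442-19387190, minus strand) encodes a fibrinogen-domain protein that binds elastin and microfibrils. It held 4624, 5015, 5285 and 5458 normalized counts in unstimulated cells, 4904, 5943, 5566 and 6348 in vehicle, 7101, 6220.2, 5818 and 6163 under belinostat and 5303, 5453, 5676 and 5131 under GSK-J4. Belinostat libraries lay above all unstimulated and all GSK-J4 libraries and overlapped vehicle. MFAP4 was 1.24-fold higher under belinostat than in unstimulated cells (log2 0.31 ± 0.08, DESeq2 adjusted p = 0.00208, 0.25 without library 17), in all 13 alternatives. It was 1.17-fold higher than under GSK-J4 (log2 0.23 ± 0.08, adjusted p = 0.0356). This second call was lost with edgeR (adjusted p = 0.0578) and when belinostat 17, 18 or 20 or GSK-J4 21, 22 or 24 was left out (adjusted p = 0.0598 to 0.127). Against vehicle the value was 0.15 ± 0.08 (adjusted p = 0.334), and 0.09 without library 17. Exons of MAPK7, with 456 to 750 estimated counts, overlap MFAP4 on the opposite strand.

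MFAP2 (ENSG00000117122.14, chr1:16974502-16980632, minus strand), or MAGP1, is a small glycoprotein of the microfibril surface. It averaged 399.7 ± 20.7 normalized counts (SD, n = 4) in unstimulated cells, 369.5 ± 6.67 in vehicle, 419.8 ± 56.1 under belinostat and 369.8 ± 35.9 under GSK-J4. No comparison passed the test with all libraries, and its log2 fold changes lay between -0.11 and 0.18. Without belinostat 17, the comparison with vehicle gave 0.27 (DESeq2 adjusted p = 0.0227), that with GSK-J4 0.27 (adjusted p = 0.0164) and that with unstimulated cells 0.16 (adjusted p = 0.268), where all libraries gave 0.07. That library held 341 normalized counts, and the other belinostat libraries 419 to 462.

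FBLN1 (ENSG00000077942.19, chr22:45502238-45601135, plus strand) encodes fibulin-1, the most abundant of the 10 transcripts. Its normalized counts were 23752, 24787, 22011 and 25766 in unstimulated cells and 27192, 23074, 24568 and 25246 in vehicle. Belinostat libraries held 13862, 19119.6, 19695 and 19186, and GSK-J4 libraries 27367, 31479, 28121 and 27734. All belinostat libraries were below, and all GSK-J4 libraries above, every library of the other groups. FBLN1 fell to 0.718 of its vehicle level under belinostat (log2 -0.48 ± 0.09, DESeq2 adjusted p = 2.87e-05). Without library 17, its lowest value, the log2 fold change was -0.37 (adjusted p = 8.75e-07). It was likewise lower under belinostat than in unstimulated cells (log2 -0.42 ± 0.09, adjusted p = 0.000248) and than under GSK-J4 (log2 -0.67 ± 0.09, adjusted p = 7.43e-11). Without library 17 these were -0.32 and -0.57, and the calls held in all 13 alternatives.

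For GSK-J4 the FBLN1 values did not pass the test. Against vehicle the log2 fold change was 0.20 ± 0.09, with a 95% interval from 0.01 to 0.38 (DESeq2 adjusted p = 0.435). Against unstimulated cells it was 0.25 ± 0.09 (adjusted p = 0.1003), with a 95% interval from 0.07 to 0.44. The summed fibroblast and smooth muscle markers were also highest under GSK-J4, and their part in the FBLN1 values was not tested. A fit of the 2 groups alone gave adjusted p = 0.0264 and 0.00389 for these values. Vehicle and unstimulated cells differed by 0.06 ± 0.09 (adjusted p = 0.979). The order of the group means was thus belinostat, unstimulated, vehicle and GSK-J4, and the unstimulated and vehicle levels were within the spread of their libraries.

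FBLN2 (ENSG00000163520.14, chr3:13549125-13638422, plus strand) encodes fibulin-2, a larger fibulin that binds fibrillin-1 and tropoelastin. Its normalized counts were 484, 549, 619 and 577 in unstimulated cells and 663, 529.9, 508 and 451 in vehicle. Belinostat libraries held 864, 891, 905 and 824, and GSK-J4 libraries 536, 516, 488 and 439. The belinostat libraries were tightly grouped and stood above all 12 others, and library 17 was not extreme for this gene. FBLN2 rose 1.62-fold under belinostat against vehicle (log2 0.70 ± 0.11, DESeq2 adjusted p = 8.60e-09), 1.56-fold against unstimulated cells (log2 0.64 ± 0.11, adjusted p = 1.00e-07) and 1.76-fold against GSK-J4 (log2 0.82 ± 0.11, adjusted p = 2.09e-12). Without library 17 the log2 values were 0.70, 0.65 and 0.82. These 3 calls held in all 13 alternatives. In the other comparisons FBLN2 had log2 fold changes of -0.05 ± 0.11 (vehicle against unstimulated), -0.12 ± 0.11 (GSK-J4 against vehicle) and -0.17 ± 0.11 (GSK-J4 against unstimulated), and none passed the test.

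Since both fibulins were read from the same library, their ratio does not depend on the scaling between libraries. FBLN1 counts were 43.6 ± 5.70 times those of FBLN2 (SD, n = 4) in unstimulated cells, 47.2 ± 6.60 in vehicle, 20.6 ± 3.16 under belinostat and 58.2 ± 5.28 under GSK-J4. The ratio lay between 16.0 and 23.3 in the belinostat libraries, below the lowest value of any other group, 35.6. The ratios of unstimulated libraries (35.6 to 49.0) and vehicle libraries (41.0 to 56.0) overlapped. The ratio is given as a description, since its terms were each tested above.

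**Figure D3:**
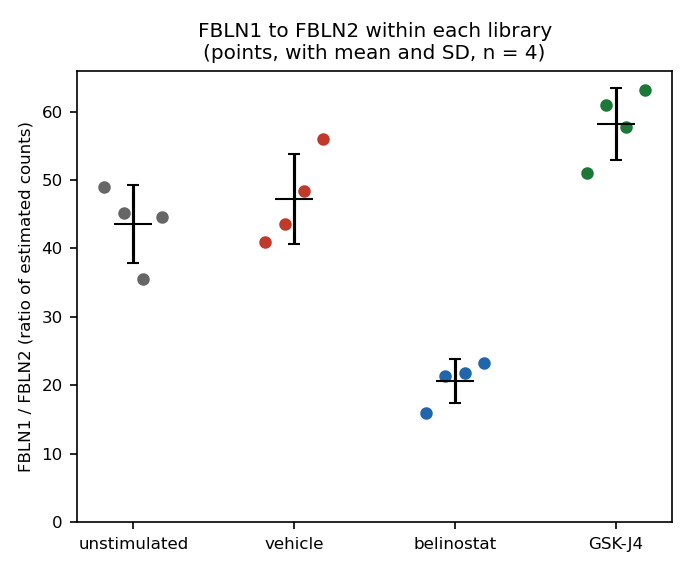
Ratio of FBLN1 to FBLN2 estimated counts within each library; points are libraries, with mean and SD (n = 4). All belinostat libraries lie between 16.0 and 23.3, under the other 12 libraries.

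FBLN5 (ENSG00000140092.16, chr14:91869411-91947987, minus strand) encodes fibulin-5, which guides elastin onto microfibrils. It averaged 9748 ± 1187 normalized counts (SD, n = 4) in unstimulated cells, 8577 ± 686 in vehicle, 8807 ± 1876 under belinostat and 7735 ± 363 under GSK-J4. No comparison passed the test with all libraries. GSK-J4 against unstimulated gave a log2 fold change of -0.33 ± 0.13 (DESeq2 adjusted p = 0.106), with no overlap between the groups, and -0.42 (adjusted p = 0.0212) without unstimulated 1. Belinostat against GSK-J4 gave 0.19 ± 0.13 (adjusted p = 0.413), and 0.33 (adjusted p = 0.00173) without belinostat 17. Against vehicle and unstimulated cells belinostat gave 0.04 and -0.15, and 0.18 and -0.00 without that library. It held 6064 normalized counts and the others of its group 9416 to 10310.2.

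LOX (ENSG00000113083.15, chr5:122063195-122078413, minus strand) encodes lysyl oxidase, which oxidises lysines of elastin and collagen so that they crosslink. It held 1543, 1466, 1576 and 1280.0 normalized counts in unstimulated cells, 1559, 1702, 1737 and 1644 in vehicle, 2709, 1677, 1320.5 and 1604 under belinostat and 1542, 1394, 1327 and 1272 under GSK-J4. Belinostat 17 was far above the other 15 libraries, and all GSK-J4 libraries lay below all vehicle ones. LOX passed the test in none of the 6 comparisons. The log2 fold change of GSK-J4 against vehicle was -0.26 ± 0.15 (DESeq2 adjusted p = 0.608), and a fit of these 2 groups alone gave adjusted p = 0.00365. Belinostat against vehicle gave 0.14 ± 0.15 (adjusted p = 0.772), which became -0.11 without library 17. Belinostat against GSK-J4 gave 0.40 ± 0.15 (adjusted p = 0.0631), 0.15 without belinostat 17, and 0.53 (adjusted p = 0.00331) without belinostat 19. Belinostat against unstimulated cells gave 0.32 ± 0.15 (adjusted p = 0.194), 0.06 without belinostat 17 and 0.45 (adjusted p = 0.0240) without belinostat 19. Exons of SRFBP1, with 122 to 192 estimated counts, overlap LOX on the opposite strand.

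**Figure D4:**
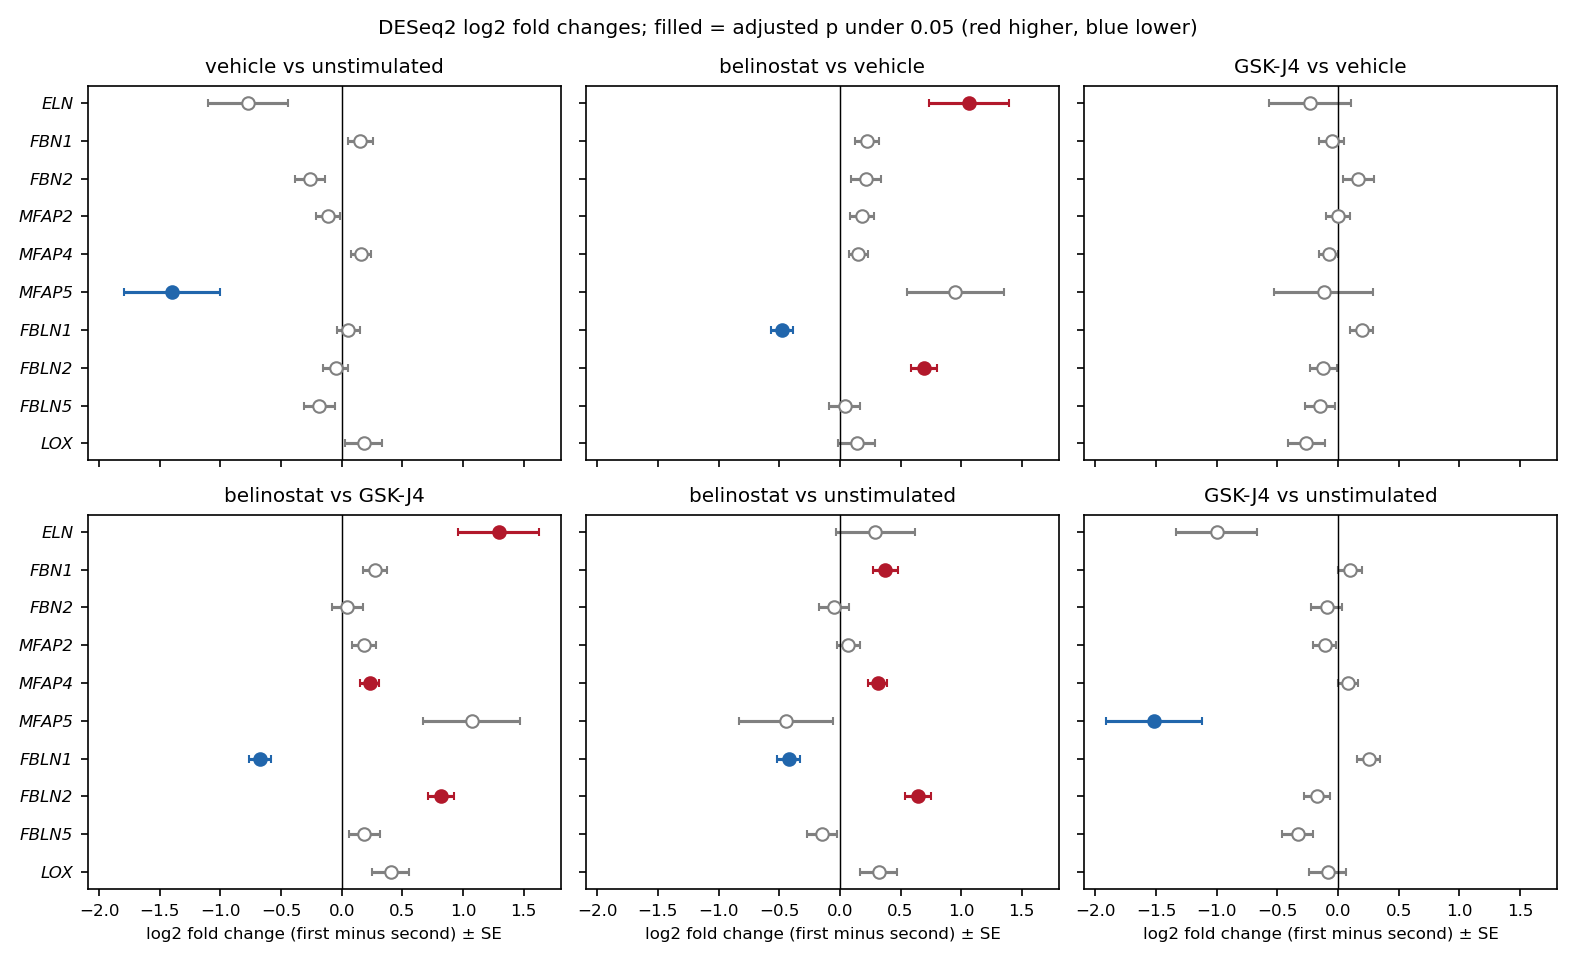
DESeq2 log2 fold changes of the 10 genes in the 6 comparisons, as the first group minus the second, with SE bars; filled points have an adjusted p under 0.05. Belinostat shows FBLN2 to the right and FBLN1 to the left of 0 in each of its 3 comparisons, and MFAP5 is filled on the left in 2 of the comparisons with unstimulated cells.

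A wider list of 36 genes of elastic fibre assembly and breakdown was counted beside the 10. Against vehicle, 30 of them were tested, and belinostat called 1 higher and 6 lower, where 3.12% of all genes tested were higher and 3.13% lower. LTBP1, which anchors latent TGF-beta to microfibrils, rose by a log2 fold change of 0.38 ± 0.07 (DESeq2 adjusted p = 2.41e-06). LTBP4, another latent TGF-beta binding protein and a partner of fibulin-5, had -0.38 ± 0.07 (adjusted p = 2.52e-06). EMILIN1, a glycoprotein at the boundary of elastin and microfibril, had -0.35 ± 0.07 (adjusted p = 1.89e-05). LOXL1, a lysyl oxidase that acts on elastin, had -0.46 ± 0.12 (adjusted p = 0.00291), and -0.53 to -0.32 with a library left out. These named genes of matrix assembly therefore did not move one way under belinostat.

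Among proteases that can degrade elastin, belinostat against vehicle gave 2 lower and 0 higher of 5 tested, against 3.13% and 3.12% of all genes, and 3 of the 8 proteases on the list were not tested. They were CTSL, cathepsin L, at -0.42 ± 0.09 (DESeq2 adjusted p = 0.000108) and MMP2, gelatinase A, at -0.19 ± 0.05 (adjusted p = 0.00117, and 0.0579 with edgeR). FURIN, a convertase that cleaves profibrillin, was lower by the same test at -0.26 ± 0.05 (adjusted p = 3.35e-06). FBN3, ADAMTS17, MMP9 and ADAMTSL2 had at most 0.965, 3.00, 3.00 and 4.79 normalized counts in any library. A call against vehicle was gained by ADAMTSL4 without belinostat 18 (adjusted p = 0.0235), LOXL2 without belinostat 19 (0.0291), LOXL3 without vehicle 16 (0.0466) and CTSK, the gene of cathepsin K, without belinostat 17 (0.00657).

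GSK-J4 against vehicle called 2 of 30 genes tested, both higher, where 1.10% of all genes were: LOXL3, a lysyl oxidase (0.34 ± 0.07, DESeq2 adjusted p = 0.000166), and FKBP10, a prolyl isomerase of the endoplasmic reticulum (0.20 ± 0.04, adjusted p = 0.00123, and 0.0536 with edgeR). Vehicle against unstimulated called 1 of 32 tested, against 1.74% of all genes. This was EFEMP1, the gene of fibulin-3, which was lower (-0.44 ± 0.13, adjusted p = 0.0353). That call was lost with edgeR (adjusted p = 0.121) and without unstimulated 2, 3 or 4 or vehicle 15 or 16 (adjusted p = 0.0824 to 0.2002). GSK-J4 against unstimulated called 1 lower and 3 higher of 32 tested, against 2.37% and 3.18% of all genes. EFEMP1 was lower (-0.69 ± 0.13, adjusted p = 6.72e-06), in all 13 alternatives. FKBP10 was higher there (0.31 ± 0.04, adjusted p = 7.42e-10), as were LOXL3 (0.20 ± 0.07, adjusted p = 0.0425) and FURIN (0.17 ± 0.05, adjusted p = 0.0122). The LOXL3 call was lost without unstimulated 1, 2 or 4 or any 1 of the GSK-J4 libraries (adjusted p = 0.0501 to 0.149), and with edgeR (0.0604), total-count size factors (0.0672) and a fit of the 2 groups alone (0.0704). The FURIN call was lost without unstimulated 3 or GSK-J4 22 or 23 (adjusted p = 0.0601 to 0.0850) and with edgeR (0.0524). Calls were gained against unstimulated cells by EMILIN1 without unstimulated 1 (0.0336) or 2 (0.0495) and by LOXL4 without unstimulated 3 (0.00549), with TMM size factors (0.0499) and with a minimum of 10 counts (0.0439), and against vehicle by EMILIN1 in a fit of the 2 groups alone (0.00183).

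Belinostat against GSK-J4 called 5 of 30 genes tested higher (EFEMP1, LTBP1, ADAMTSL4, LOXL2 and ATP7A) and 9 lower (LTBP4, EMILIN1, LOXL1, LOXL3, FURIN, FKBP10, MMP2, CTSK and CTSL), against 6.18% and 6.01% of all genes. EMILIN1 and LOXL3 each had a log2 fold change of -0.52 ± 0.07 there (DESeq2 adjusted p = 2.24e-12 and 2.14e-12). Calls were lost for ADAMTSL4 without belinostat 19 or 20 or GSK-J4 21 or 22 (adjusted p = 0.0530 to 0.0865), for LOXL2 without belinostat 17 or GSK-J4 22, 23 or 24 (0.0744 to 0.134) and for CTSK without belinostat 18, 19 or 20 or GSK-J4 21, 22 or 23 (0.0524 to 0.0911). With edgeR, LOXL2 (0.0551) and CTSK (0.0518) also lost theirs, and in a fit of the 2 groups alone ADAMTSL4 (0.0613) and LOXL2 (0.0991) did. Belinostat against unstimulated called 5 of 30 tested higher (LTBP1, ADAMTSL4, LOXL2, LOXL4 and FKBP10) and 7 lower (LTBP4, EMILIN1, LOXL1, LOXL3, FURIN, MMP2 and CTSL), against 5.51% and 4.77% of all genes. There ADAMTSL4 lost its call without unstimulated 1, 2 or 3 or belinostat 17, 19 or 20 (adjusted p = 0.0748 to 0.163), LOXL4 without unstimulated 1 or 2 or belinostat 18, 19 or 20 (0.0534 to 0.1798) and FKBP10 without unstimulated 1, 3 or 4 or belinostat 17, 19 or 20 (0.0520 to 0.168). With edgeR and in a fit of the 2 groups alone all 3 lost their calls (0.0513 to 0.202), and with TMM size factors ADAMTSL4 (0.0654) and FKBP10 (0.0837) did. Calls were gained by ATP7A without unstimulated 3 (0.0314) and by CTSK without unstimulated 4 (0.0484) or belinostat 17 (0.00101).

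**Figure D5:**
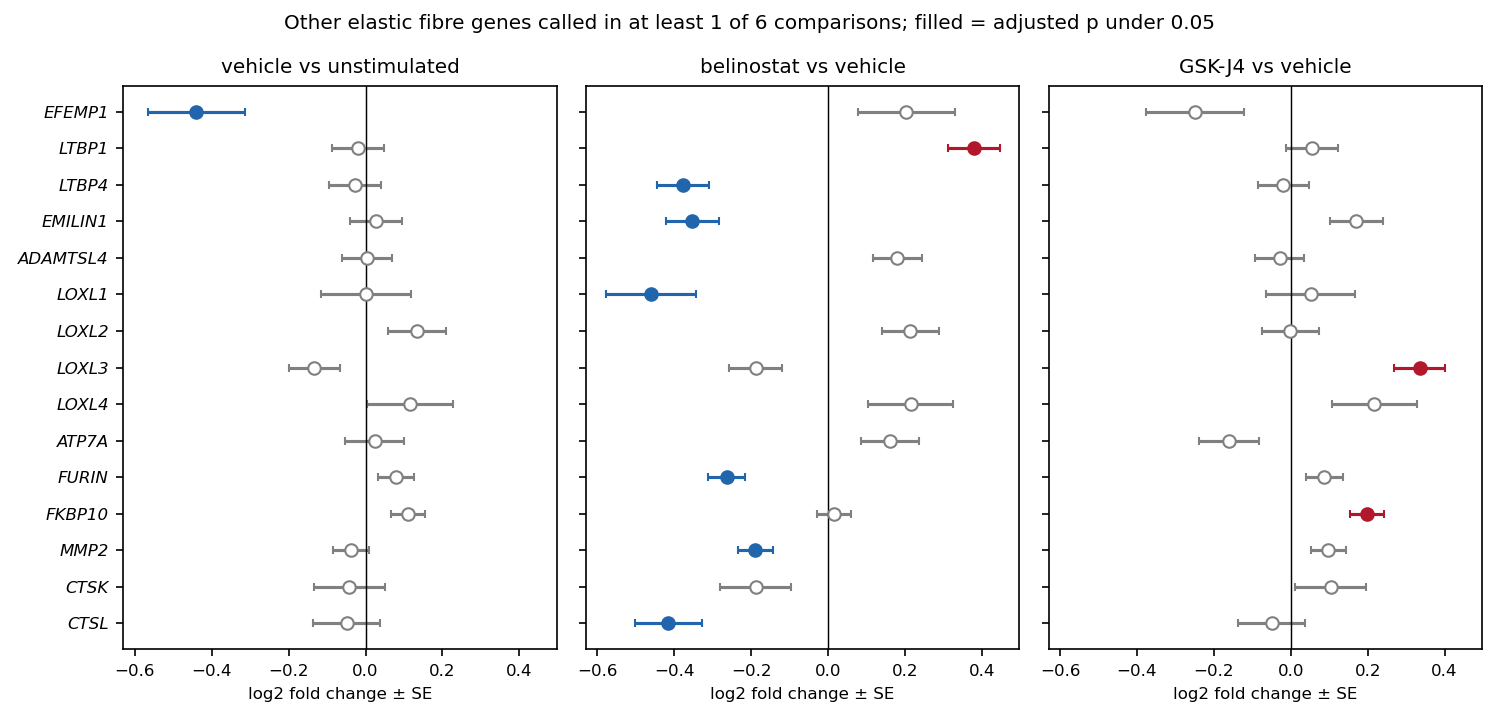
DESeq2 log2 fold changes with SE bars of the genes of the wider list that were called in at least 1 of the 6 comparisons, shown for 3 of them; filled points have an adjusted p under 0.05. Belinostat against vehicle has LTBP1 filled on the right and 6 genes filled on the left, and GSK-J4 against vehicle has LOXL3 and FKBP10 filled on the right.

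For the 6 genes called in at least 1 comparison, the closest patterns were sought among 11740 genes as the root mean square difference over the 16 libraries in log2(normalized count + 1), each gene centred on its mean. ELN was nearest to HMCN1 (0.389), a giant member of the fibulin family, then THBS2 (0.412) and LMCD1 (0.413), against a spread of its own of 0.682. MFAP5 was nearest to CHRDL1 (0.546), BMP6 (0.548) and ELN (0.557), with an own spread of 0.872. FBLN1 was nearest to LDB2 (0.0910), TNFRSF19 (0.0934) and HIC1 (0.0942), and FBLN2 to HIP1 (0.141), OSBPL9 (0.152) and CEP126 (0.154). FBN1 was nearest to SYNE1 (0.0647), JMY (0.0690) and PLEKHM3 (0.0788), and MFAP4 to ECE1 (0.0655), GPR157 (0.0727) and FAM117B (0.0751). Within the 10 genes the closest pairs were MFAP2 with FBLN5 (0.160) and FBN1 with MFAP4 (0.164), while FBLN1 and FBLN2 differed by 0.592. These are descriptions over libraries that share depth and treatment.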

How the data were processed

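Per the labels and the study's methods, libraries were made with the NEBNext Ultra II RNA kit and sequenced on a NextSeq500, and the authors quantified reads with kallisto. The submitters' processing notes name FastQC 0.11.9, MultiQC 1.14, kallisto 0.48.0 and the build hg38. The transcript release and how values were collapsed to symbols are not given in the sources used here. The deposited values are estimated counts per symbol, not scaled to library size, of which 28.0% had decimals. They were rounded to whole numbers here. ELN, FBN1, MFAP5 and FBLN5 had decimals in all 16 libraries and FBN2 in 14, so part of their reads may have been divided between symbols. Columns of unstimulated libraries were matched by library number.

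Groups were taken from the labels. Differential expression was tested in DESeq2 1.42.0 (Wald test, run in R 4.3.3) with 1 fit of all 16 libraries, group as the factor, median-of-ratios size factors, unshrunken fold changes and the default filter on mean counts. Called genes had an adjusted p (Benjamini-Hochberg, over all genes tested) under 0.05. Errors of fold changes are SE and intervals cover 95%, each for the spread between libraries. Alternatives were edgeR's quasi-likelihood test (edgeR 4.0.16), TMM and total-count size factors, a minimum of 10 counts in 4 libraries, a fit of the 2 groups compared, and leaving out each library of the groups compared. DESeq2 and edgeR were also run on simulated counts in which log2 changes of 1 or 2 were planted in belinostat against vehicle. Smaller changes, other comparisons and a library that stands apart were not simulated, so that check does not cover them. No replicate pair agreed within sampling noise.

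Coordinates and canonical transcript lengths are from GENCODE release 44 on GRCh38, matched by symbol, and promoter windows are from RefSeq. The members and lists were chosen with earlier results of these data known. Named genes are the 10 members, genes of the wider list that were called in at least 1 comparison or near 0 in every library, and the 3 genes most alike to each called member among genes with a mean of at least 50 normalized counts.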

Additional observations from a re-analysis of the deposited data

Results flagged for a closer look

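In each group of 4, the gap between an end library and its nearest neighbour was divided by the range of the group for each of the 10 genes, and a ratio above Dixon's critical value at 95% was taken up. Chance alone gives about 1 in 20 such groups, and 40 were examined. ELN in unstimulated 3 was 193.526 normalized counts, while the other unstimulated libraries held 101 to 116 (ratio 0.839). FBLN1 in belinostat 17 was 13862.2 normalized counts, while the other belinostat libraries held 19119.6 to 19695 (ratio 0.901). Without that library FBLN1 was still lower under belinostat than in vehicle, with a log2 fold change of -0.37 in place of -0.48.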

How the results depend on the processing

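The calls of FBLN1 and FBLN2 in the 3 belinostat comparisons held under all 13 alternatives, as did ELN against GSK-J4, FBN1 and MFAP4 under belinostat against unstimulated cells and MFAP5 under GSK-J4 against unstimulated cells. Of 60 results of the 10 genes, 44 kept their call or lack of one throughout, 16 gained or lost a call in at least 1 alternative and 0 reversed. Of the 44, 9 changed sign without being called. Vehicle against unstimulated had 1 gene called and 0 with edgeR, and 0 to 1 when a library was left out. Belinostat against vehicle had 3, and 2 to 5 with a library left out, 5 being the count without belinostat 17. GSK-J4 against vehicle had 0, and 2 (FBLN1 and LOX) in a fit of the 2 groups alone. Belinostat against GSK-J4 had 4, and 3 to 7 with a library left out, 7 being the count without belinostat 17. Belinostat against unstimulated had 4, and 4 to 5 with a library left out. GSK-J4 against unstimulated had 1, and 2 with TMM size factors, 2 with total-count size factors, 2 with a minimum of 10 counts, 4 in a fit of the 2 groups alone, and 1 to 3 with a library left out, 3 being the count without unstimulated 1. The share of all genes called was counted only in the main DESeq2 fit, so these changes cannot be read as particular to the 10 genes. Their cause was not tested. Of the other scalings, the one that moved the median of all genes most was by total counts, at -0.02 on the log2 scale in GSK-J4 against vehicle. ELN and MFAP5, at 15.2 to 218 estimated counts per library, had SEs of 0.33 to 0.41 on the log2 scale, where those of FBLN1 were 0.09. Differences well above these SEs could therefore also go uncalled. Examples were ELN in vehicle against unstimulated (-0.77, DESeq2 adjusted p = 0.365) and MFAP5 in belinostat against vehicle (0.95, adjusted p = 0.164). No paired analysis was possible because the groups share no replicate numbers in the labels.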
